A study of Drosophila melanogaster with 3 samples.

Results

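The vacuolar H+ ATPase subunit genes of the fruit fly were taken as the protein-coding genes whose symbol begins with Vha, and the gene models held 33 of them among 13945 protein-coding genes on the 6 chromosome arms used here. Each was described by the places where CG18599, a homeodomain protein carrying a C-terminal GFP (green fluorescent protein) tag, was recovered by chromatin immunoprecipitation and sequencing. The material was whole embryos of both sexes, aged 0 to 24 hours, of a transgenic strain carrying the tagged protein, and all 3 biological replicates belong to this 1 group. Chromatin was sonicated to fragments of 200 to 800 bp and precipitated through the GFP tag. Whole embryos mix all cell types, the labels name no promoter or cell type for the tagged protein, and binding in fewer cells cannot be told apart from weaker binding per cell. Peak lists hold no expression values, so the tissue label could not be checked against marker genes. No untagged or input sample was analysed here, and the lists give no read numbers, so depth is unknown.

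The vacuolar H+ ATPase is a rotary proton pump that acidifies lysosomes, endosomes and secretory compartments, and in some epithelia, such as the Malpighian tubule, it sits in the apical plasma membrane and drives ion transport. Its peripheral V1 sector binds and splits ATP, with a head of alternating A and B subunits, a central stalk of D and F, and peripheral stalks built with C, E, G and H. Its membrane V0 sector carries the protons through a ring of c and c'' subunits against the large a subunit, with d and e beside it. Many subunits have several genes in the fly, some of them used broadly and others in few tissues.

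The authors' list of peaks kept by irreproducible discovery rate (IDR), a filter on how well replicates rank the same peaks, held 8858 entries. A peak was credited to the gene whose transcription start site (TSS) was nearest to the peak's summit, up to 10 kb away. Rank 1 is the peak with the highest signal value, a score of the authors whose scale is not given in the sources used here. The members fell into 5 groups. The nearest TSS of an IDR summit belonged to a Vha gene for 11 members, or 33.3%, against 29.3% of all protein-coding genes. A further 2 members, Vha36-1 and Vha44, had an IDR summit within 500 bp of the TSS that lay still closer to a neighbour. Another 3, Vha100-1, Vha68-2 and VhaAC39-1, had a summit within 500 bp only among the weaker entries of the pooled list, which holds 30000 entries from all replicates and begins with the same 8858 peaks. For 5 members the pooled list gave only summits farther away, and for 12 it credited none to them.

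The family was thus recovered at about the rate of genes at large, and the interest lies in which members were recovered and where. At the 500 bp distance 6 members were the nearest gene, or 18.2%, against 18.7% of all genes. Counting every gene with a TSS within 500 bp of a summit, whichever was nearest, gave 8 members, or 24.2%, against 24.0%. The same count over the pooled list gave 13 members, or 39.4%, against 38.2%. The members' strongest credited peaks were weaker than those of occupied genes in general. The median rank was 5305 over 11 members against 3100 over 4087 genes. For the 6 members counted at 500 bp the ranks were 1490, 1946, 2383, 2803, 5513 and 6375, and for the others 4189 to 8601. Promoters held the strongest peak of 54.5% of occupied members and 52.2% of all occupied genes. Left out of the members' median are summits of ranks 416, 1889 and 2131, at Vha promoters but credited to neighbours. Median ranks of promoter peaks alone were not compared with those of all genes. Among the first 4429 peaks, 4 members, or 12.1%, were credited with a promoter peak, against 11.8% of all genes. By this count promoter peaks of the family were not rarer among the stronger entries. None of the 11 members had its strongest credited peak among the first 10% of the list, where 723 of the 4087 occupied genes had theirs. These medians are descriptions with no test. The length of genome lying nearest to a gene's TSS, which sets how easily a summit is credited to it, had a median of 4201 bp over the members and 4246 bp over all genes.

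**Figure D1:**
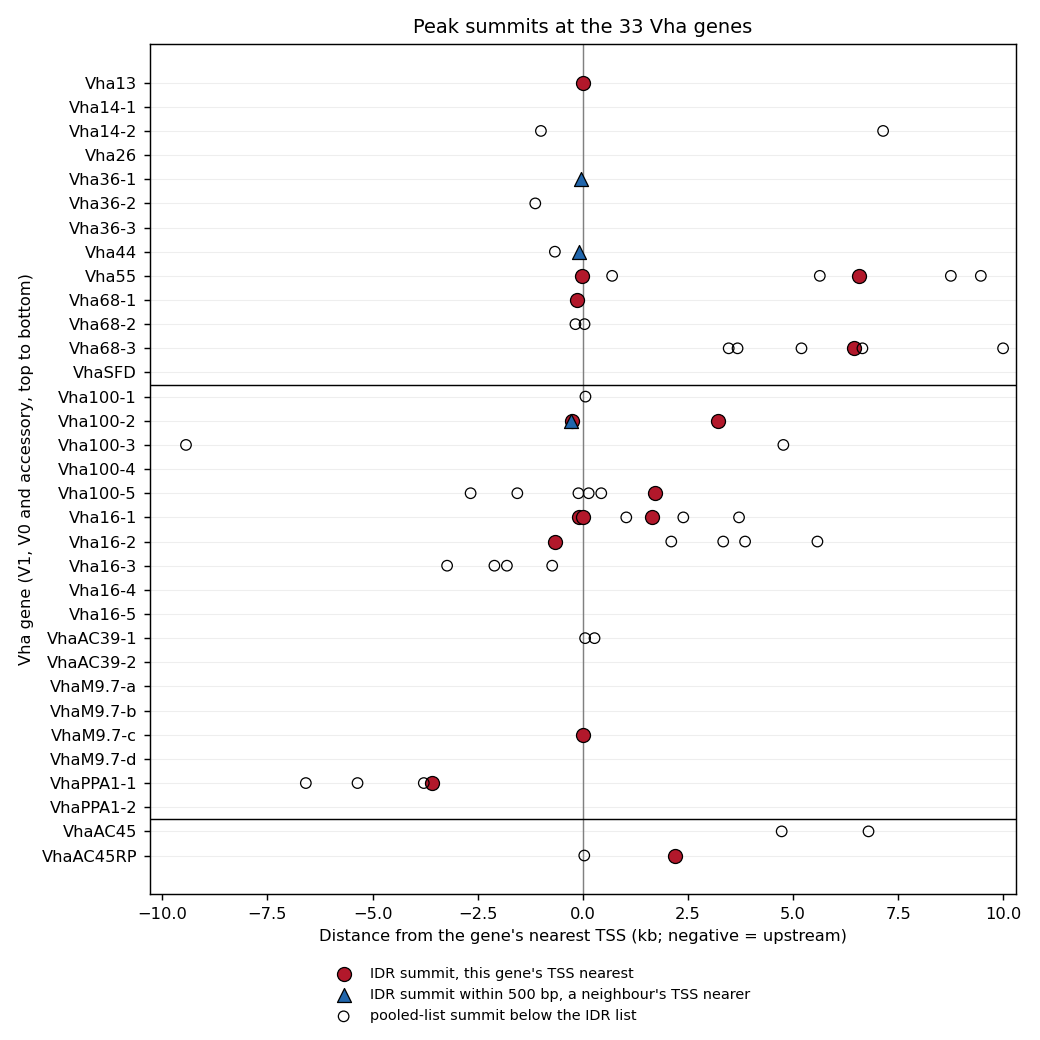
Distance in kb from each Vha gene's nearest TSS to every peak summit assigned to it, with 1 row per gene and the V1, V0 and accessory genes in blocks from top to bottom. Filled circles are IDR summits credited to the gene, triangles IDR summits within 500 bp that lay nearer to a neighbour, and open circles weaker summits of the pooled list. Rows without a symbol belong to the 12 members with no pooled-list summit credited to them.

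The strongest credited peak of the family stood at Vha55, the only gene of the nucleotide-binding B subunit. Vha55 (FBgn0005671) lies on the minus strand of 3R from 12623762 to 12627829. Its peak had rank 1490 in the IDR list, 1183 in replicate 1, 2249 in replicate 2 and 1417 in replicate 3. The summits of the 3 replicates fell 8 bp upstream, 4 bp downstream and 23 bp upstream of the TSS, so all lay at the start site itself. A further Vha55 peak, rank 3784, lay between genes 6564 bp downstream of the TSS, and replicates ranked it 3800, 4402 and 3939. A long noncoding RNA gene, lncRNA:CR44942, had a TSS closer to that summit, at 1709 bp.

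Vha68-1 encodes a catalytic A subunit and shares its upstream region with mTor, the kinase of the growth pathway that reads amino acid levels at the lysosome. Vha68-1 (FBgn0265262, 2L, 13000770 to 13004107, minus strand) had a peak of rank 1946, with ranks of 2300, 2013 and 2076 in the replicates. The mean rank was 2130 ± 151 (SD, n = 3). The summit lay 133 bp upstream of Vha68-1 and 240 bp upstream of mTor, whose start sites are 373 bp apart and point away from each other, so the peak cannot be given to either gene alone. Naming mTor here followed from its position, after the values were seen.

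Vha13, the only gene of the G subunit of the peripheral stalk, had its peak on the start site. Vha13 (FBgn0283536, 3R, 19643018 to 19644386, minus strand) had rank 2383, and ranks of 2282, 2320 and 2504 in the replicates gave 2369 ± 119 (SD, n = 3). The IDR summit was 3 bp downstream of the TSS, and no other gene had a TSS within 500 bp of it. The nearest, Nup58 on the opposite strand, started 640 bp from the Vha13 TSS. The replicate ranks of the peak were close together.

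The stretches of 101 bp below show the DNA under these promoter summits and, for contrast, at the start sites of Vha26 and VhaSFD, which had no IDR peak. Each is written 5′ to 3′ on the strand of the gene, from the RefSeq sequence of dm6, with the summit or TSS at the middle base. Capitals mark matches to any of 8 short motifs searched on both strands. They were the E-box CACGTG, its extended form TCACGTGA (which contains the E-box), the DREF element TATCGATA, the M1BP element GGTCACAC, the homeodomain core TAATTA, the TATA box TATAAA, the A/T-rich hexamer ATATTA and the GAGA word GAGAG. The windows are chr3R:12627794-12627894 for Vha55, chr2L:13004190-13004290 for Vha68-1, chr3R:19644333-19644433 for Vha13, chr3L:4186821-4186921 for VhaM9.7-c, chr3R:18397171-18397271 for the peak shared by Vha100-2 and Vti1b, chr3R:5591713-5591813 for Vha26 and chr2L:16727776-16727876 for VhaSFD. The TSS is base 66 of the Vha55 window, base 48 of that of Vha13 and base 57 of that of VhaM9.7-c.
Vha55: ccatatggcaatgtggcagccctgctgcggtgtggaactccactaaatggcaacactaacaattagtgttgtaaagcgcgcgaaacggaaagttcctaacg
Vha68-1: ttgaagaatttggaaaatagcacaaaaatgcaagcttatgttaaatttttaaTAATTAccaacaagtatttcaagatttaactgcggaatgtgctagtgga
Vha13: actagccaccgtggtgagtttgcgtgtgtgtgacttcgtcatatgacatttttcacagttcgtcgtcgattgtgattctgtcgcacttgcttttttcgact
VhaM9.7-c: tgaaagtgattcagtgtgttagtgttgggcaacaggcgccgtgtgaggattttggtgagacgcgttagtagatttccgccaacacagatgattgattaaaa
Vha100-2 and Vti1b: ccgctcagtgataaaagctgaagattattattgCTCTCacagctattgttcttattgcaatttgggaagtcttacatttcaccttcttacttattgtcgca
Vha26: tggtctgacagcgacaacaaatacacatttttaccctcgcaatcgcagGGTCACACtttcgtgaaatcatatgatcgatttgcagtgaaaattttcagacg
VhaSFD: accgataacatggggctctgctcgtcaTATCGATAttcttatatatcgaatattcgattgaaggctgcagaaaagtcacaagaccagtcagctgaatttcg

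Of these summits, that of Vha68-1 held the homeodomain core TAATTA, whose first base lay 2 bp from the summit. It was the only member among 11 with this motif within 50 bp of its strongest summit, while 9.04% of all IDR summits had it. The windows of Vha55, Vha13 and VhaM9.7-c matched none of the 8 motifs. GGTCACAC, part of the promoter element of the zinc-finger protein M1BP, began 2 bp upstream of the Vha26 start site, and TATCGATA, the element bound by DREF, 23 bp upstream of that of VhaSFD. Neither gene had an IDR peak.

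The remaining A subunit genes were recovered less strongly. Vha68-2 and Vha68-3 lie in tandem on the plus strand of 2L, and Vha68-1 follows them farther along the arm. At the start of Vha68-2 the pooled list held weak summits alone, the stronger at rank 12367, 40 bp downstream of the TSS, and another at rank 20693. The replicates held the stronger at ranks 7315, 9937 and 12257, inside the first 8858 of replicate 1 alone. Vha68-3 was credited with a peak of rank 4189 that lay 6445 bp downstream of its TSS, past the end of the gene and between genes. Replicates placed this summit at ranks 3424, 5666 and 3577 and within 6433 to 6462 bp of the TSS, so the place itself was recovered closely, although a transposable element's start lay nearer to it.

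**Figure D2:**
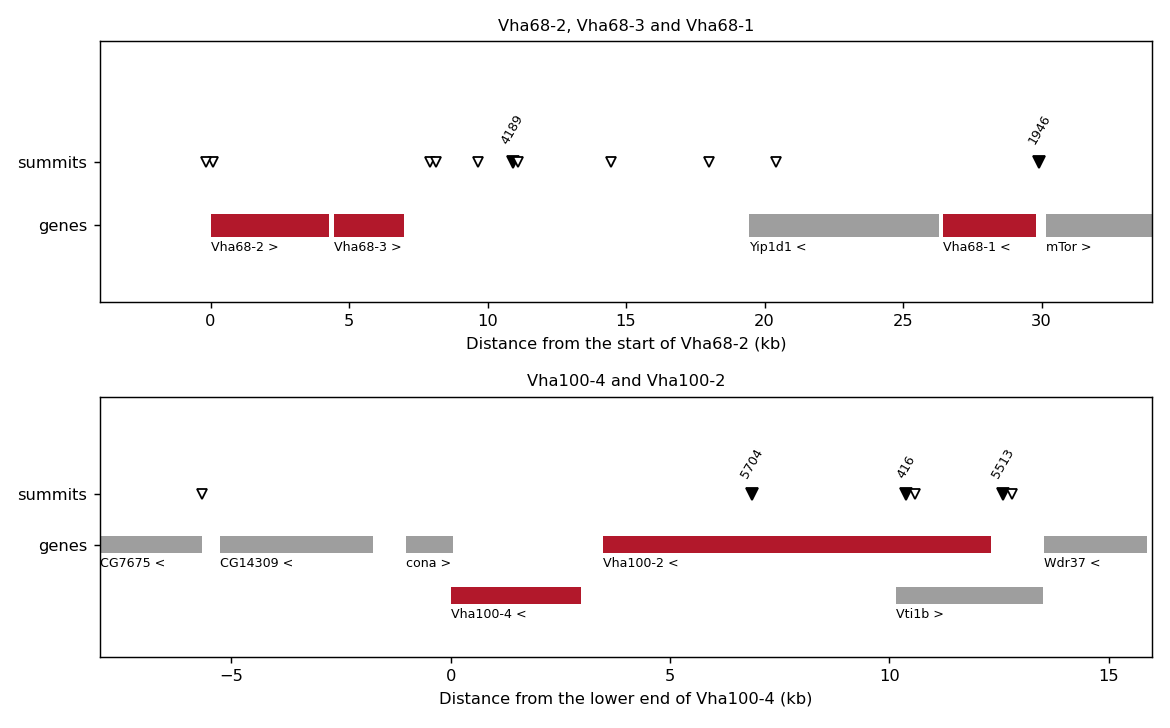
Genes as bars (Vha genes in red, other protein-coding genes in grey, with > and < for the strand) and summits as triangles, plotted by distance in kb along the chromosome. Filled triangles with a number are IDR summits with their rank, and open ones weaker summits of the pooled list. The peak of rank 1946 sits between Vha68-1 and mTor, and that of rank 416 where Vti1b begins inside Vha100-2.

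Beyond A, B and G, no V1 subunit gene was credited with an IDR peak, and at 2 of them a promoter summit lay nearer to another gene. Vha44, the only C subunit gene, had a summit of rank 2131 at 91 bp upstream of its TSS, but the start of Hmgs, the gene of HMG-CoA synthase, was 32 bp away on the opposite strand. Replicate ranks of 2272, 2096 and 2280 gave 2216 ± 104 (SD, n = 3). Vha36-1, a D subunit gene of the central stalk, had a summit of rank 1889 at 37 bp upstream, and CG8187, on the opposite strand, was only 2 bp closer. Replicates 1 and 2, with ranks of 1438 and 1770, placed that summit nearer to Vha36-1, whereas replicate 3, with rank 2952, placed it nearer to CG8187. The credit to CG8187 in the IDR list therefore turned on a few base pairs.

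The E subunit gene Vha26 and the H subunit gene VhaSFD, each the only gene of its subunit, had promoter summits in replicate 2 alone. Vha26 had rank 5893 there, 5 bp upstream of the TSS, and VhaSFD rank 5597, 44 bp downstream. Neither had any entry within 1 kb of its TSS in replicates 1 and 3 or in the pooled list. Both values rest on 1 replicate, and without replicate 2 neither gene had any summit credited to it. The F subunit gene Vha14-1 had no summit credited to it in any list. The nearest IDR peak, of rank 389, lay 889 bp downstream of its TSS, past the end of the gene and 239 bp upstream of Gmppa. The paralogues Vha14-2 and Vha36-2 had weak summits outside the IDR list. The best of Vha36-2 had rank 24030 in the pooled list, 27913 in replicate 2 and 16503 in replicate 3. The best of Vha14-2 lay at a different place in each list. It had rank 25490 in the pooled list, upstream of the TSS. In replicate 1 it had rank 23147, 7150 bp downstream, and in replicate 3 rank 19628, 9502 bp downstream. Vha36-3 had none credited to it.

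In the V0 sector, Vha16-1, the main gene of the c subunit that forms the proton-carrying ring, had the most summits of the family. Vha16-1 (FBgn0262736, 2R, 6625242 to 6633090, minus strand) had 3, of which the strongest, rank 2803, lay 94 bp upstream of a TSS. Its replicate ranks were 3383, 2157 and 3597, with summits at 60, 95 and 94 bp upstream. A peak of rank 5209 in an intron, 1653 bp downstream of the nearest TSS, was ranked 5158, 4613 and 4356. The peak of rank 8730, 12 bp downstream of another start of the gene, was held less steadily, at 7430, 23251 and 15376. Thus 2 of the 3 places were inside the top 8858 of every replicate and the weakest in replicate 1 only.

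The other c subunit genes gave little. Vha16-2 was credited with a peak near the end of the list, rank 8601, 670 bp upstream and between it and Vha16-3. The replicate ranks of this peak were 6664, 11846 and 8380, and a transposable element's start lay nearer to its summit, at 418 bp. Vha16-3 had weaker summits, the best at rank 18427 in the pooled list. Its best replicate ranks were 26272, 17655 and 13784, and only that of replicate 1 lay at the same place as the pooled summit. Vha16-4 and Vha16-5 had none credited to them. Of the c'' genes, VhaPPA1-1 had a peak of rank 5305 at 3582 bp upstream, in all replicates at 3534 to 3581 bp and at ranks 6584, 4747 and 6468. The start of a long noncoding RNA gene, lncRNA:CR46199, was 20 bp closer to this summit than that of VhaPPA1-1. VhaPPA1-2 had no summit credited to it.

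Vha100-2, 1 of 5 genes of the a subunit, held the strongest IDR peak within 500 bp of any member's TSS, but a neighbour took the credit. Vha100-2 (FBgn0028670, 3R, 18390323 to 18399169, minus strand) overlaps Vti1b, the gene of a SNARE protein of endosomal membrane fusion, on the opposite strand. A peak of rank 416 lay 293 bp upstream of the inner TSS of Vha100-2 and 226 bp downstream of that of Vti1b. The replicates ranked it 348, 446 and 394, which gave 396 ± 49.0 (SD, n = 3), and it stood within the first 4.70% of the IDR list. The start sites are 67 bp apart, so this peak too could not be assigned to 1 gene. The peaks credited to Vha100-2 itself were weaker, rank 5513 at 262 bp upstream of its outer TSS and rank 5704 in an intron, and the latter had no counterpart within 250 bp in replicate 1.

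The other a subunit genes had weaker or no peaks. Vha100-5 was credited with rank 7937 in its intron, 1722 bp downstream of the TSS, with replicate ranks of 9655, 11022 and 6486. Around its TSS the pooled list held summits of ranks 9300 and 9969, and replicates 1 and 2 had summits there inside their first 8858, at ranks 8857 and 7025. Vha100-1 was outside the IDR list too, with a pooled-list summit of rank 9653 at 62 bp downstream of a TSS and replicate ranks of 19371, 10548 and 11558. Vha100-3 had only weak summits, the best at rank 24937 in the pooled list, upstream of the TSS. Its best replicate ranks were 23033, 24943 and 18471. Only that of replicate 2 lay at the same place as the pooled summit, and the others lay downstream of the TSS. Vha100-4 had none credited to it.

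For the small e subunit, VhaM9.7-c had a promoter peak of rank 6375, 6 bp upstream of its TSS (FBgn0028664, 3L, 4186018 to 4186865, minus strand). The replicates ranked it 6236, 5623 and 9821, so replicate 3 left it outside its first 8858. VhaM9.7-a, VhaM9.7-b and VhaM9.7-d had no pooled-list summit credited to them. Of the d subunit genes, VhaAC39-1 had a weak promoter summit in replicates 1 and 2, at ranks 14676 and 11172, with none within 1 kb in replicate 3, and VhaAC39-2 had only an entry of rank 26076 in replicate 3. Of the accessory Ac45 genes, VhaAC45RP was credited with rank 7971 at 2195 bp downstream, past the end of the gene, ranked 8493, 8436 and 8858. VhaAC45 had a pooled-list summit of rank 8926, shortly below the end of the IDR list and 6793 bp downstream of its TSS.

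**Figure D3:**
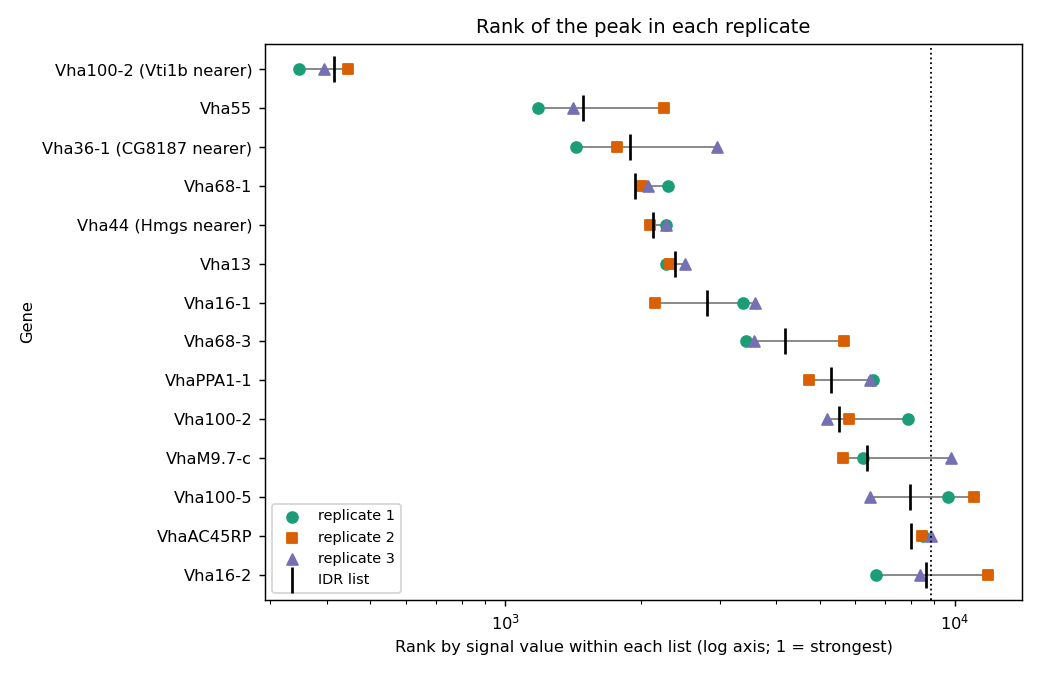
Rank of the strongest credited IDR peak of 11 Vha genes, and of 3 IDR peaks within 500 bp of a Vha TSS that lay nearer to another gene, on a log axis. Symbols are the 3 replicates, the vertical tick is the IDR list and the dotted line its length of 8858. Ranks of Vha13, Vha44 and Vha68-1 nearly coincide, while those of Vha100-5, Vha16-2 and VhaM9.7-c cross the dotted line.

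By sector, 4 of 13 V1 genes, 6 of 18 V0 genes and 1 of 2 accessory genes were credited with an IDR peak, where the share of all protein-coding genes was 29.3%. With the neighbour-credited promoter summits, 5 of 13 V1 genes and 3 of 18 V0 genes had an IDR summit within 500 bp. Neither accessory gene had one, and the share of all protein-coding genes was 24.0%. By this count V1 lay above that share and V0 below it. The counts are small, and differences between sectors were not tested. The V1 subunits with only 1 gene were B, C, E, G and H. Vha55, Vha44 and Vha13 of these had a promoter summit in every replicate, and Vha26 and VhaSFD in replicate 2 alone.

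Counted in each replicate over its 8858 strongest peaks, 13 members were the nearest gene in replicate 1, 14 in replicate 2 and 10 in replicate 3, where the shares of all protein-coding genes were 29.5%, 30.4% and 28.8%. The members' mean was 12.3 ± 2.08 (SD, n = 3), or 37.4% ± 6.31, against 29.6% ± 0.807 for all genes. Replicate 3, at 30.3%, stood near the background, and replicates 1 and 2, at 39.4% and 42.4%, above it. The count of replicate 2 includes Vha26 and VhaSFD, whose summits no other list held within 250 bp. In all 3 replicates 9 members were recovered, Vha100-2, Vha100-5, Vha13, Vha16-1, Vha55, Vha68-1, Vha68-3, VhaAC45RP and VhaPPA1-1, or 27.3% of the family, and 3141 genes, or 22.5%, of all. This count rests partly on the length of the lists. VhaAC45RP had rank 8858 in replicate 3, the last entry counted, and Vha100-5 had rank 8857 in replicate 1, and it was counted at its TSS in replicates 1 and 2 but in its intron in replicate 3. With only the first 99% of each list, a setting chosen after seeing the data, 7 members remained in all 3, or 21.2%, against 22.4% of all genes. Over the full 8858 entries, another 3 members were in 2 lists, 4 in 1 and 17 in none, against 6.57%, 8.06% and 62.8% of all genes.

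**Figure D4:**
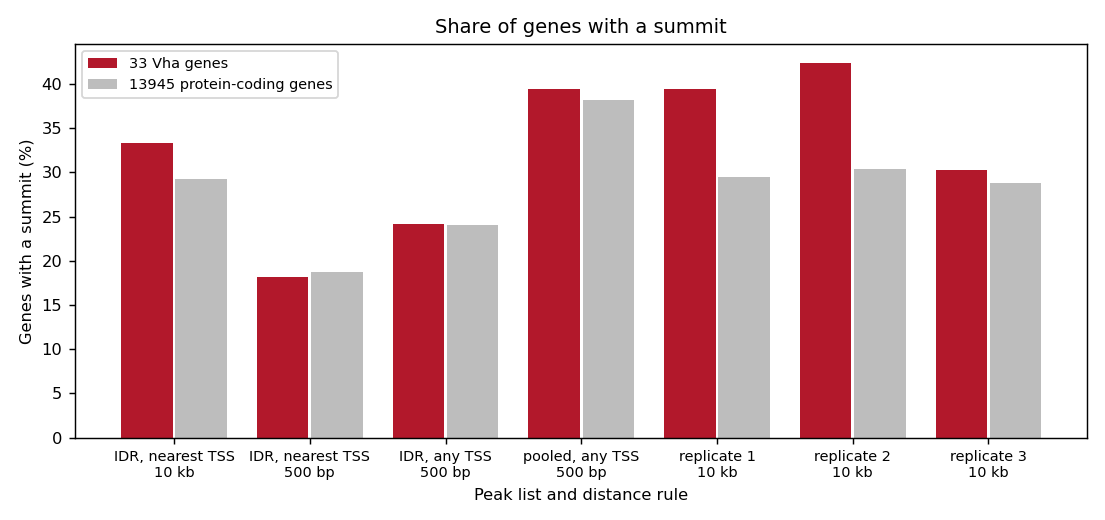
Percent of the 33 Vha genes and of 13945 protein-coding genes with a summit, for each peak list and distance rule, with bars from 0. For the IDR list the bars of the family and of all genes lie within a few points of each other, and replicate 2 has the widest gap, at 42.4% and 30.4%.

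Several promoter summits of the family stood near a gene on the other strand as well. Of the 10 IDR summits within 500 bp of a Vha TSS, 6 also had the TSS of another gene within 500 bp, always on the opposite strand, against 879 of the 3196 IDR summits near any TSS, or 27.5%. A summit near several genes has more ways to be counted in a family, and no test was made. The partners were Snx3 for Vha55, mTor for Vha68-1, CG8187 for Vha36-1, Hmgs for Vha44 and Vti1b for 2 summits of Vha100-2, of which that of rank 416 lay inside both genes. The summits of Vha13, of Vha16-1 and of VhaM9.7-c had no other gene's TSS within this distance. That of VhaM9.7-c nevertheless lay inside the genes CG18675 and Teh2.

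Base composition at the members' summits varied widely. Over 51 bp the A and T share at the 11 strongest credited summits ranged from 37.3% to 78.4% with a median of 58.8%, against a median of 66.7% over all IDR summits. The members lay on both sides of that median, with Vha68-1 and Vha68-3 highest, VhaAC45RP, VhaPPA1-1 and Vha100-2 also above it, and Vha16-2 lowest. In the 300 bp from 250 bp upstream of the first TSS, CACGTG, the E-box through which Mitf is known to act on V-ATPase genes in the fly, was present in 3 members, Vha44, VhaAC45RP and VhaM9.7-d, and in 4.20% of all promoters. Only Vha44 had the extended TCACGTGA, found in 0.172% of all promoters, and it began 43 bp from the summit of rank 2131. TATCGATA was present in 2 members, Vha55 and VhaSFD, and in 9.36% of promoters, GGTCACAC in 4 and 7.70%, and TAATTA in 5 and 20.4%. TATAAA was present in 17 members and 45.8% of promoters, ATATTA in 16 and 33.5%, and GAGAG in 9 and 29.7%. A match describes letters and not a bound site.

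Genes that work with the pump were read by the same rule, under which 29.3% of all protein-coding genes were occupied. Of 5 assembly and regulatory genes 2 were occupied. They were mtd, a TLDc-domain gene, with a promoter peak of rank 332 held at 289, 352 and 326 in the replicates, and Rbcn-3A, of the complex that assembles the sectors, at rank 5784. Rbcn-3B, Mitf and ATP6AP2, the gene of a pump accessory protein, had no credited peak. Of 9 genes of nutrient sensing at the lysosome 3 were occupied, led by Lamtor3, a subunit of the Ragulator scaffold, at rank 143, 88 bp upstream of its TSS, and Lamtor5 at rank 365, though that peak lay between genes 4743 bp downstream of the TSS. Rheb followed at rank 5660. The 9 genes do not include mTor, which was listed under another name. The peak of rank 1946, 240 bp upstream of mTor, was credited to Vha68-1. Of 16 genes of lysosomal proteins 8 were occupied, with the saposin gene Sap-r at 2558, CtsF at 4046 and Ppt1 at 4590 strongest. Of 5 sodium-proton exchanger genes 2 were occupied, Nha1 at rank 1963 and Nhe3 at 5264.

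The mitochondrial ATP synthase, the related rotary enzyme that makes ATP, had 3 of 15 genes occupied, and the proteasome, another large complex, 12 of 48. Cytosolic ribosomal protein genes had 66 of 92, or 71.7%, against 29.3% of all protein-coding genes. Differences between these lists were not tested.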

How the data were processed

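The authors deposited peak lists from chromatin immunoprecipitation and sequencing of 3 replicates on dm6, giving a signal value per peak and, in a further column, a score taken from its place in the format to be the authors' −log10 q-value. Per the deposited notes, each replicate list, of 30000 peaks and background regions, was made from that replicate's alignment and another file common to all, the pooled list from the alignments of the 3 replicates, and the IDR list from these lists. Not given in the sources used here were the aligner, the peak caller and the threshold on IDR. Lists on dm3 were not used here.

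Gene models were those of Ensembl release 115, on dm6 coordinates, counted from 1, and sequence came from the matching RefSeq assembly. A summit was credited to the nearest TSS of a protein-coding gene within 10 kb, with a shared TSS given to the first gene by identifier. Replicate top lists were the 8858 strongest peaks of each. The same peak in a replicate had a summit within 250 bp, and the strongest was taken. With 1 group there is no comparison between conditions and no test was made. Spread is given as SD over 3 replicates, and peaks or genes were not used as replicates. Every member is named; in other lists up to 3 occupied members with the strongest peaks are. Members, lists and motifs were chosen with earlier results of these data known, so no pattern is independent support. The entries Vma21, Tfeb, SLC38A9, Tor and CtsD of the other lists matched no single gene under those names. The gene models name Tor as mTor, so the nutrient-sensing list leaves that gene out. Python 3.11.15, NumPy 2.4.6 and matplotlib 3.10.9 were used. The nearest-TSS step was checked on planted summits.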

Additional observations from a re-analysis of the deposited data

How the results depend on the processing

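The count of 11 Vha genes credited with an IDR peak fell to 7 with a distance of 1 kb and to 6 with 500 bp. It was 5 with the first 4429 peaks, ranked by either column, and 6 when a TSS had to lie inside a peak interval. Each of these settings also lowered the share of all genes, which was 21.2% at 1 kb, 18.7% at 500 bp and 18.9% with the shorter list. The family's share equalled that of all genes at 1 kb and lay below it at 500 bp and with the shorter list. With a TSS inside a peak interval the family's share was 18.2%, above that of all genes. Compared with the 500 bp set, that rule gained Vha36-1 and Vha44 and lost Vha100-2 and Vha68-1. The count was 8 with TSSs of all annotated genes, which include transposable elements and noncoding RNAs, and Vha16-2, Vha68-3 and VhaPPA1-1 were then not called. That is 24.2% of the family against 27.0% of all genes, so the family then lay below the share of all genes. It was 8 to 9 with IDR peaks supported by the other replicates, leaving out each replicate in turn, against 24.1%, 23.9% and 24.8% of all genes without replicates 1, 2 and 3. The 6 genes with a promoter peak became 5 to 6 on leaving out a replicate and 4 to 8 over the other settings. These were 15.2% to 18.2% of the family against 14.3% to 15.6% of all genes on leaving out a replicate. Over the other settings they were 12.1% to 24.2% against 11.8% to 24.0%. Counting a summit for every gene within 500 bp, a setting chosen after seeing the data, gave 8. The replicate mean of 12.3 genes was 11.5 to 13.5 on leaving out a replicate, 20.3 over the whole lists and 5.33 over lists of 4429. The share of all genes is not given here for these replicate means. No paired analysis was possible because there is 1 group. Depth is unknown, so absence from a list is not absence of binding.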

Other observations

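Replicate 2 held 3 Vha start sites that no other list held within 250 bp: VhaSFD at rank 5597, Vha26 at rank 5893 and VhaAC45 at rank 8643, all within 67 bp of the TSS. Such summits made up 140 of the 8858 strongest of replicate 2, or 1.58%, against 58 in replicate 1 and 132 in replicate 3. For VhaAC45, replicate 1 held a summit of rank 15591 at 334 bp downstream of the TSS, a little more than 250 bp from that of replicate 2. A cause of these lone summits was not tested.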
